A study of Mus musculus with 12 samples.

Results

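This account covers the 25 SNPs, of 89 in the series, whose amplicons were read from skeletal muscle mRNA and from genomic DNA (gDNA) but not from liver mRNA. They were chosen by template alone: a SNP was taken if any of the 12 sequencing samples held a muscle mRNA amplicon of it and none held a liver mRNA amplicon. The other 50 of the 75 SNPs with muscle mRNA were also read from liver and serve here only as a point of comparison. The mice were F1 animals of 5 crosses between inbred strains: FVB/NJ-PWD/PHJ (10 of the 25 SNPs), CAST/EIJ-PWD/PHJ (7), WSB/EiJ-MOLF/EiJ (5), A/J-DBA/2J (2) and A/J-C57BL/6J (1). For each cross, muscle RNA was made from equal parts of tissue of 2 littermates aged 4 weeks, and gDNA came from the liver or muscle of a littermate. No animal was treated. Each SNP was amplified with the same primers from gDNA and from cDNA, and the amplicons were pyrosequenced in 3 runs of mixed pools. The 25 muscle amplicons were all in pool 3, and the matching gDNA amplicons were in pool 1 (8 SNPs) or pool 2 (17 SNPs).

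In an F1 animal both parental copies of a gene lie in the same nucleus and meet the same transcription factors and microRNAs. A difference between the transcript levels of the alleles therefore reflects, imprinting aside, differences carried in cis, on the copy itself. MicroRNAs repress transcripts by pairing of their seed, bases 2 to 8, with sites that lie mostly in 3′ untranslated regions, and a SNP within such a site can remove the pairing in 1 parental copy. The series was built around sites for miR-1 and miR-133, which are abundant in muscle, sites for miR-122, which is abundant in liver, and control sites. Which of the 25 SNPs lies in which kind of site, in which gene, and which strain carries which allele were not used here, so alleles are named by their base as the files give it. To show what a seed is, a pair of muscle microRNAs is printed here. miR-206 is expressed in skeletal muscle and has the same seed as miR-1, and miR-133b belongs to the miR-133 family. Both sequences are from RefSeq (GRCm38.p6, plus strand, chr1:20679055-20679076 and chr1:20682834-20682855), with the seed in capitals.
mmu-miR-206-3p: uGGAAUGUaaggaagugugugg
mmu-miR-133b-3p: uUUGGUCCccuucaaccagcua

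The unit measured here is an amplicon, which is defined by its pair of primers. No primer was used for more than 1 SNP, so the 25 amplicons share no primer with each other or with the other 64 SNPs. The primers were 21 to 27 bases long with a GC content of 38.5% to 61.9%. Shown here are the primers of the SNPs on which the results turn, with the 5 bases at the 3′ end, from which the polymerase extends, in capitals. The first 6 pairs belong to the SNPs with the largest shift between muscle mRNA and gDNA.
rs45902379 forward: tgaatgggagctcttgTCTGC
rs45902379 reverse: ttcacgaaaggacagcAGCAT
rs32125166 forward: aaagagctccgaaggaAGCTG
rs32125166 reverse: tttccagctcctgttgCTTGT
rs27412623 forward: ttggaccagagtctcaGTGGG
rs27412623 reverse: taaggcacaccgtaggACCAG
rs27583679 forward: cttgtgaggcgacaacCAGAC
rs27583679 reverse: agctatgtccacgtccCTGCT
rs33901248 forward: ttgtcccacagagggaGACAG
rs33901248 reverse: ctcgattgtcagctctCCTGC
rs47314602 forward: ccacgtccccaagttaAGTGA
rs47314602 reverse: aacttgctttgtgggaACCAA

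A further pair belongs to rs36311992, whose gDNA was skewed, and the last 3 pairs belong to the most deeply read SNPs without a detected shift.
rs36311992 forward: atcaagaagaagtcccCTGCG
rs36311992 reverse: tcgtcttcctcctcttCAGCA
rs31663199 forward: gttcacagcgtcaactCCCTC
rs31663199 reverse: cactcccagggatgctAAGGT
rs27772383 forward: cagtcctggcaatagcCTCAA
rs27772383 reverse: gatgctctcctcctcgGTCTC
rs30172711 forward: aacataccagatccgcACAGC
rs30172711 reverse: tctcttccgtgctgctTCTTC

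Summed over runs, the 25 SNPs had a median of 3912 allele reads in gDNA (953 to 8325) and 5517 in muscle mRNA (1423 to 9264). Because amplicons were mixed in equal molar amounts, read number says nothing about expression, and only the ratio of alleles within an amplicon was used. The label "muscle" could not be checked against marker genes for the same reason. Each allele ratio is an average over all cells of the tissue. There was 1 pool of animals and 1 amplification per template, so intervals and p-values cover counting error only, and the SD over the 3 runs is technical. PCR reads without molecular identifiers are not independent molecules.

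In muscle, 15 of the 25 SNPs had an mRNA allele ratio that differed from the ratio in gDNA, and at the other 10 no difference was detected. Over all 75 SNPs with muscle mRNA, 62.7% were called by the same test, Fisher's exact test (two-sided) on reads summed over runs, with Benjamini-Hochberg adjustment over the 75 and a threshold of 0.05. The share of muscle-only SNPs called was thus close to the background. Sizes are given as the fold by which the allele ratio in mRNA exceeded that in gDNA, for the allele that gained. The median fold was 1.20 over the 25 SNPs, 1.16 over the 50 SNPs read in both tissues and 1.17 over all 75. A shift of at least 1.5-fold was found at 5 of the 25 SNPs, against 17.3% of the 75. Of the 50, only 28 had their muscle amplicon in pool 3 like the 25, and 22 had it in pool 4. Among the 28, 19 were called, the median fold was 1.20 and 7 reached 1.5-fold. Among the 22 these values were 13, 1.16 and 1. In all 15 called SNPs the same allele gained in each of the 3 runs, as it did at 46 of the 47 called among the 75. The calls were made on the sum of these runs, so this agreement is not separate support. Called or not, it held at 18 of the 25 and 54 of the 75. With the run number as a block (Mantel-Haenszel test) the same 15 were called, against 60% of the 75.

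The largest shift was at rs45902379 (A or G) in the FVB/NJ-PWD/PHJ cross. The A allele took 49.9%, 47.8% and 52.9% of gDNA reads in runs 1 to 3. In muscle mRNA it took 71.7%, 75.3% and 72.1%, so the lowest mRNA value lay 18.8 percentage points above the highest gDNA value. The means were 50.2% ± 2.54 and 73.0% ± 2.00 (SD, n = 3 runs), and the summed counts were 1877 A and 1864 G reads in gDNA against 3404 A and 1239 G reads in mRNA. This was a 2.73-fold gain of A (95% interval 2.49 to 2.99, adjusted p = 2.33e-104 by Fisher's exact test). It was the only one of the 25 SNPs past 2-fold. In mRNA there were 2.75 A reads per G read.

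The same cross held the next largest shifts among SNPs with an even gDNA ratio. At rs27412623 (T or C), T took 47.6%, 49.8% and 49.3% of gDNA reads and 62.4%, 65.0% and 62.2% of muscle mRNA reads. The 1.80-fold gain of T (95% interval 1.64 to 1.98) had an adjusted p of 9.57e-34 by Fisher's exact test. At rs27583679 (G or C), G took 51.3%, 48.4% and 50.4% of gDNA reads and 59.9%, 61.6% and 60.2% of mRNA reads. Its gain was 1.55-fold (95% interval 1.44 to 1.67, adjusted p = 1.43e-28 by Fisher's exact test). At both SNPs gDNA was close to an even split in every run, and the runs of the templates did not overlap.

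Also among the 5 largest shifts were those of a pair of SNPs of the CAST/EIJ-PWD/PHJ cross whose gDNA was itself far from even. At rs32125166 (T or C), T took only 34.6%, 35.0% and 34.4% of gDNA reads but 50.1%, 48.4% and 50.03% of muscle mRNA reads. Set against gDNA, T gained 1.84-fold (95% interval 1.69 to 1.99, adjusted p = 8.46e-49 by Fisher's exact test). Set against 1:1, the mRNA ratio of T to C was 0.976 and was not distinguishable from even (adjusted p = 0.409, exact binomial test, two-sided). The call at this SNP therefore depends on taking the gDNA ratio as the control. Whether the skew of the gDNA amplicon also acted on the muscle amplicon was not tested.

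At rs33901248 (G or C) the skew was in the same direction in both templates. G took 91.1%, 89.5% and 91.0% of gDNA reads and 93.4%, 93.5% and 94.1% of muscle mRNA reads, so the runs did not overlap but lay only 2.22 percentage points apart at the nearest. On the ratio scale this was a gain from 9.61 to 14.8 G reads per C read, or 1.54-fold (95% interval 1.36 to 1.74, adjusted p = 9.09e-11 by Fisher's exact test). The summed C reads behind these ratios were 549 in gDNA and 510 in mRNA.

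In the WSB/EiJ-MOLF/EiJ cross the leading SNP was rs47314602 (T or C). T took 48.9%, 50.9% and 51.1% of gDNA reads and 60.03%, 58.6% and 60.3% of mRNA reads, with no overlap. T gained 1.46-fold (95% interval 1.32 to 1.62, adjusted p = 1.33e-12 by Fisher's exact test). At rs36311992 (C or T) of this cross, C took 45.1%, 44.2% and 44.1% of gDNA reads and 51.0%, 50.9% and 51.2% of mRNA reads, the closest agreement between runs of any of the 25 muscle amplicons (SD 0.143 percentage points). C gained 1.30-fold (95% interval 1.22 to 1.39, adjusted p = 2.83e-16 by Fisher's exact test). As at rs32125166, the mRNA itself was near even (ratio 1.04, adjusted p = 0.0844 against 1:1 by the exact binomial test), so the called gain stands against a gDNA skew towards T.

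The remaining 8 called SNPs shifted by 1.08-fold to 1.37-fold. They were rs32110158 of CAST/EIJ-PWD/PHJ (1.37-fold towards A over G), rs30309406 (T over G, 1.37-fold, A/J-C57BL/6J), rs29401978 (C over T, 1.24-fold, A/J-DBA/2J) and rs32890396 (G over A, 1.22-fold, WSB/EiJ-MOLF/EiJ). Smaller still were rs27858409 (T over A, 1.21-fold, FVB/NJ-PWD/PHJ), rs33341769 (T over C, 1.20-fold, WSB/EiJ-MOLF/EiJ), rs48036736 (C over T, 1.12-fold) and rs37629523 (A over G, 1.08-fold), the last pair in FVB/NJ-PWD/PHJ. At rs30309406 the runs were tight, with T at 49.9% ± 0.340 in gDNA and 57.8% ± 0.627 in mRNA (SD, n = 3 runs). At rs32110158, which had the fewest muscle reads of the 25 (1423), A stood at 49.8% ± 2.40 and 57.3% ± 3.06 (SD, n = 3 runs), and the interval of its fold was wider, 1.20 to 1.57. At rs29401978, C stood at 51.8% ± 0.183 in gDNA and 57.2% ± 0.948 in mRNA, and the 95% interval of the fold was 1.15 to 1.33. At rs32890396, G rose from 49.7% ± 0.636 to 54.7% ± 0.409, with an interval of 1.13 to 1.32.

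At rs27858409 most of the spread was in gDNA, where T took 45.9% of reads in run 1 against 49.9% and 50.8% in runs 2 and 3. In mRNA T took 53.3%, 54.3% and 53.5%, so all mRNA runs lay above all gDNA runs. The shift on the log2 scale accordingly ranged from 0.16 in run 3 to 0.42 in run 1. At rs33341769 the spread was in mRNA, with T at 54.1% ± 2.56 against 49.4% ± 0.691 in gDNA (SD, n = 3 runs), and the log2 shift ranged from 0.12 in run 1 to 0.38 in run 2. The adjusted p of these 2 SNPs was 4.26e-07 and 9.90e-04 by Fisher's exact test.

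The smallest of these calls did not hold under every treatment of the runs. At rs48036736 the nearest runs of the templates lay 0.139 percentage points apart, and the adjusted p of 0.0157 (Fisher's exact test) became 0.114 without run 2 and 0.260 without run 3. At rs37629523 the gap was 0.0881 points, and the adjusted p of 0.0399 became 0.176 without run 2 and 0.106 without run 3. Both lost their call, as did rs33341769 (adjusted p = 0.0537), when the spread between runs was modelled with a quasi-binomial fit, which left 12 of the 25 SNPs called against 42.7% of the 75. When extra variance between amplicons was added to the test, rs27858409 and rs32890396 were lost as well, with adjusted p of 0.0583 and 0.0528. This left 10 of 25 against 32% of the 75. The 10 with the largest folds among the 25 kept their calls under both.

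The 10 SNPs without a call had folds of 1.001 to 1.13. The most deeply read were rs31663199 (WSB/EiJ-MOLF/EiJ), rs27772383 (CAST/EIJ-PWD/PHJ) and rs30172711 (FVB/NJ-PWD/PHJ). At rs31663199, C took 48.0%, 50.4% and 48.5% of gDNA reads and 48.8%, 49.7% and 48.6% of mRNA reads (fold 1.002, 95% interval 0.938 to 1.07). At rs27772383, C took 50.4%, 45.1% and 47.2% of gDNA reads and 49.9%, 46.3% and 47.1% of mRNA reads (fold 1.001, 95% interval 0.930 to 1.08). The share moved between runs in both templates, highest in run 1 and lowest in run 2. At rs30172711, G took 48.0%, 42.4% and 46.6% of gDNA reads and 49.0%, 46.4% and 47.2% of mRNA reads (1.08-fold, 0.995 to 1.16), with overlap between the templates.

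Among the others without a call, rs36955667 (T over C, 1.02-fold, 95% interval 0.947 to 1.11), rs26921101 (A over G, 1.02-fold, 0.942 to 1.11), rs33026747 (G over C, 1.03-fold, 0.951 to 1.12) and rs49639594 (A over G, 1.01-fold, 0.905 to 1.14) had intervals that reach to both sides of 1. At rs27243317 (G over T, 1.10-fold, 1.003 to 1.20) the adjusted p was 0.0658 by Fisher's exact test. At rs26921132 the T allele was higher in mRNA in every run (52.8% ± 0.280 against 49.6% ± 2.55, SD, n = 3 runs), with no overlap. Its gDNA had the fewest reads of the 25 (953), and the 1.13-fold shift (0.977 to 1.30) was not detectable at this depth (adjusted p = 0.145 by Fisher's exact test).

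The largest spread between runs was at rs13474726 (G or A, FVB/NJ-PWD/PHJ). In muscle mRNA G took 51.1% in run 1, 62.3% in run 2 and 46.8% in run 3, an SD of 8.02 percentage points, while in gDNA it took 51.0%, 54.0% and 52.5%. The chi-square per degree of freedom between muscle runs was 20.8, where 1 is the level of counting error alone; the next highest of the 25 was 3.43, at rs45902379. The summed shift of 1.06-fold was not called (adjusted p = 0.368 by Fisher's exact test), but without run 3 it was 1.23-fold and called (adjusted p = 0.00809), and without run 2 the ratio moved the other way (0.888-fold). No direction can be given for this SNP. Over the 25 SNPs, the median SD of the share was 1.23 percentage points in gDNA and 0.948 in muscle mRNA.

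Without regard to size, the 3 muscle runs lay wholly above the 3 gDNA runs at 16 of the 25 SNPs, against 56% of the 75. These were the 15 called SNPs and rs26921132. By cross, the calls covered 4 of 5 SNPs from WSB/EiJ-MOLF/EiJ, 6 of 10 from FVB/NJ-PWD/PHJ, 3 of 7 from CAST/EIJ-PWD/PHJ, 1 of 2 from A/J-DBA/2J and the single SNP from A/J-C57BL/6J. The SNPs read in both tissues gave 9 of 12, 7 of 10, 7 of 12, 0 of 1 and 9 of 15 in the same order of crosses. The 5 shifts of at least 1.5-fold were in the crosses with PWD/PHJ, which held 17 of the 25 SNPs. Of the 8 such shifts at SNPs read in both tissues, 2 were in these crosses, which held 22 of the 50. Over all 75 SNPs these crosses held 39 SNPs and 7 of the 13 such shifts, so the shifts were close to the share of SNPs. Differences between crosses were not tested, since each cross was read at other SNPs and from 1 pool of animals. Calls were made at 5 of 8 SNPs with gDNA in pool 1 and at 10 of 17 with gDNA in pool 2. The counts by gDNA pool over all 75 SNPs are not given here, so these describe the 25 only. Most SNPs read in both tissues had their gDNA in pool 1. Muscle mRNA and gDNA of a SNP were never in the same pool, so effects of the template and of the pool cannot be told apart.

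Genomic DNA, the control for allele bias of the amplification, was near even at most of the 25 SNPs. Summed over runs, 22 had both alleles between 45% and 55%, as had 67 of the 75 SNPs with muscle mRNA. By the exact binomial test (two-sided, adjusted over 89 SNPs) 8 of the 25 departed from 1:1, against 24.7% of the 89. The skew was 9.61-fold at rs33901248 (towards G), 1.88-fold at rs32125166 (C) and 1.25-fold at rs36311992 (T), and 1.07-fold to 1.20-fold at rs30172711 (A), rs26921101 (A), rs49639594 (A), rs27772383 (A) and rs29401978 (C). For the first 3 the 95% Wilson intervals of the summed share were 89.8% to 91.3% G, 33.3% to 36.1% T (the allele with fewer reads) and 43.4% to 45.5% C (the allele with fewer reads). Of the 8 skewed SNPs 4 were called in muscle mRNA against gDNA, and of the 17 others 11. Over all 75 SNPs with muscle mRNA these counts were 11 of 18 and 36 of 57. Without run 3 the count of departures was 5, with rs27772383, rs29401978 and rs49639594 lost, and without run 2 it was 6, with rs27772383 and rs29401978 lost. Without run 1 it was 8, with rs29401978 lost and rs13474726 added. A quasi-binomial model over the 3 runs left only rs33901248 called. With 3 runs of 1 template this model has little power. It lost even rs32125166, where T took 34.7% ± 0.334 of gDNA reads (SD, n = 3 runs). Its losses therefore do not show that a skew differed between runs. The share of all 89 SNPs under these alternatives is not given here, so these counts describe the 25 only.

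The gDNA control changed which SNPs would be called imbalanced. Muscle mRNA tested against 1:1 with no gDNA gave 20 of 25 SNPs (77.3% of the 75), but only 13 of these were among the 15 called against gDNA. The 2 missing were rs32125166 and rs36311992. The 7 added were rs26921101, rs30172711, rs27772383, rs49639594, rs13474726, rs26921132 and rs33026747. At the first 4 of these the gDNA was itself skewed, and the mRNA ratio had the same direction. At rs26921101, for example, A took 53.6% ± 0.224 of gDNA reads and 54.1% ± 0.538 of mRNA reads (SD, n = 3 runs).

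The direction of the shifts was also set against the bases of the alleles. Of the 25 SNPs, 21 have a G or C allele against an A or T allele, and 4 do not (rs27583679, rs33901248, rs33026747 and rs27858409). Relative to gDNA the G or C allele was the higher one in muscle mRNA at 9 of the 21 and the A or T allele at 12, called or not. Among called SNPs the G or C allele gained at 4 and the A or T allele at 8. Over all 67 such SNPs with muscle mRNA the shares called in these directions were 29.9% and 32.8% (20 and 22 SNPs). The median log2 shift towards the G or C allele was -0.03 over the 21 and -0.02 over the 67. Transitions, which exchange A with G or C with T, made up 18 of the 25, and 11 were called; of the 7 transversions 4 were called. Over the 75 the counts were 38 of 60 transitions and 9 of 15 transversions.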

How the data were processed

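Per the file headers, the files hold deposited raw counts of reads for the 2 alleles of each SNP, per amplicon and run, with template, cross and primers. Per the labels' protocols, cDNA was primed with random hexamers, about 60 amplicons were mixed per pool, and 4 pools were pyrosequenced in 3 runs. How reads were assigned and filtered, and the build, is not given in the sources used here. Each of the 12 samples held 41332 to 108526 allele reads. Here alleles were matched by base and counts summed over runs, which are technical. Tests were fitted on all SNPs with the template (at least 20 allele reads, which all passed), with a threshold of 0.05. Folds had 0.5 added to each count, with intervals on the log scale from the 4 counts. The quasi-binomial model took its dispersion over runs, not below 1. Extra variance between amplicons had an SD of 0.0754 (log2 scale), estimated from gDNA and added for each template. SciPy 1.17.1 and statsmodels 0.14.6 were used, and the test was tried on simulated reads. Equal run numbers in different pools were taken to mark shared runs. For each of the 25 SNPs, deviations of the log2 allele ratio from its mean over runs were compared between gDNA and muscle mRNA. Their uncentred correlation over SNPs was 0.360, 0.182 and 0.228 in runs 1 to 3 and was not tested. On this reading of the numbers, runs 1 to 3 were also tested as a block.

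The SNPs, tests and alternatives were chosen with earlier results of these data known. Values for each run and primers are given for the 6 SNPs with the largest called shift and the same sign in all runs, the 3 most deeply read SNPs without a call, and those with a gDNA share outside 45% to 55%. Other SNPs with values for each run were chosen after their values were seen. Controls without reverse transcriptase were not analysed here.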

Additional observations from a re-analysis of the deposited data

How the results depend on the processing

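Of the 25 SNPs, the same 15 were called with the run number as a block (Mantel-Haenszel test). They were also called with no minimum of reads, with a minimum of 50 or 1000 reads and with no added count. These last settings could hardly change the calls, so they are no support for them. The added count does not enter Fisher's exact test, and no SNP with muscle mRNA had fewer than 488 reads in either template. Of the 25, the minimum of 1000 removed only rs26921132, which was not called. With 1 run left out the number called was 13 to 15, while the share called of all 75 SNPs fell from 62.7% to between 53.3% and 54.7%. A required shift of 1.5-fold left 5 (17.3% of the 75). Tested against 1:1 without gDNA, the log2 shift changed sign at rs32125166 (-0.0347), rs30172711 (-0.153), rs27772383 (-0.135) and rs31663199 (-0.0527), since the gDNA ratio was no longer taken off. The other changes of sign were at SNPs without a call, and none was called with the turned sign. With 1 run left out, the log2 shift ranged from -0.171 to 0.302 at rs13474726, -0.0720 to 0.0958 at rs33026747, -0.0607 to 0.104 at rs36955667 and -0.0221 to 0.0270 at rs27772383, each lowest without run 2. It ranged from -0.0611 (without run 3) to 0.0615 at rs49639594 and from -0.0174 (without run 1) to 0.0243 at rs31663199, where it was -0.00212 with the block. Departures of gDNA from 1:1 numbered 8 with a minimum of 1000 reads, 1 with the quasi-binomial model over 3 runs (rs33901248), and 5 to 8 with 1 run left out. The quasi-binomial model has little power on 3 runs of 1 template. The cause of the gDNA departures was not tested. Shifts towards the G or C allele were 4 of 12 when only called SNPs were counted. Over all SNPs with muscle mRNA, 20 called shifts were towards G or C and 22 towards A or T. With 1 run left out, 8 to 10 of 21 shifts were towards G or C, called or not, and the counts over all SNPs are not given here. Over the 25 SNPs and 12 alternatives, 259 single shifts kept their direction and side of the threshold. The call was lost at 23 and gained at 6 in the same direction, and 11 changed sign. Many of the 259 were fixed in advance, since no minimum, a minimum of 50 and no added count could not change a call. With a minimum of 1000 reads rs26921132 was not tested. With 1 amplification per template, depth limits only the counting error.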
